A study of Mus musculus with 3 samples.

Results

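The genes described here are 10 members of glycolysis, from glucose entry to lactate: Slc2a1, Hk2, Pfkp, Aldoa, Tpi1, Gapdh, Pgk1, Eno1, Pkm and Ldha. They were taken by symbol from the 32285 genes listed in the count tables, and all 10 were found. 11 entries carried these symbols because Aldoa appeared under 2 identifiers, and the second, an upstream gene model, held 7, 6 and 21 UMIs in the 3 libraries and was kept apart. Levels were read over the 6480 cell barcodes that had at least 15000 unique molecular identifiers (UMIs, each standing for 1 captured RNA molecule) and 1 to 20% of them from mitochondrially encoded genes. All 10 genes passed the floor of a mean of 10 CPM over the libraries, which 7608 genes passed in all. CPM are UMIs of a gene scaled to a library total of 1000000.

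The cells were E14 mouse embryonic stem cells of 129/Ola background, a single established line, kept in serum with leukemia inhibitory factor. Starting 24 h after seeding, they received 250 µg/mL cycloheximide, which blocks translation elongation, in 0.007% EtOH for 3 h or 6 h, and the control received EtOH alone for 6 h. All 3 groups therefore had EtOH in common, and the 3 h group had no control of its own duration. Cells were frozen and thawed before 10x Genomics 3' v3 sequencing. Each group had 1 library, so the values below compare 3 libraries, carry no test between conditions, and have intervals that cover counting error only.

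Glycolysis turns glucose into pyruvate with a small gain of ATP. A membrane transporter lets glucose in, hexokinase traps it as glucose 6-phosphate, and phosphofructokinase commits it to breakdown. The later enzymes split the sugar, oxidise it and make ATP, and lactate dehydrogenase reduces pyruvate to lactate, which returns NAD+ to the pathway. Mouse embryonic stem cells are known for a high glycolytic flux, and many genes of the pathway are known targets of the hypoxia factor HIF1 and of Myc, which bind short sequences in promoters.

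Because the 4 genes that differed most at 6 h were Slc2a1, Hk2, Pfkp and Eno1, their promoters are printed first, with that of Ldha as the 1 member whose first window held a complete E-box. Each is the window of 250 bases before the most upstream RefSeq start on GRCm38.p6, written 5′ to 3′ on the strand of the gene. Capitals mark ACGTG or GCGTG, the cores of the hypoxia response element, on the printed or the opposite strand. The E-box bound by Myc, CACGTG, contains ACGTG. The windows lie at chr4:119108495-119108744 on the plus strand for Slc2a1, chr6:82774455-82774704 on the minus strand for Hk2, chr13:6648772-6649021 on the minus strand for Pfkp, chr4:150236458-150236707 on the plus strand for Eno1, and chr7:46845554-46845803 on the plus strand for Ldha.
Slc2a1: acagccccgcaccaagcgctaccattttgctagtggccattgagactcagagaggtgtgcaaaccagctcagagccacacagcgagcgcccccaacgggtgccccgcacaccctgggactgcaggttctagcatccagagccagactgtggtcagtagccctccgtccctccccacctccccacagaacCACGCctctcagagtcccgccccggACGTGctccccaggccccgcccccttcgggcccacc
Hk2: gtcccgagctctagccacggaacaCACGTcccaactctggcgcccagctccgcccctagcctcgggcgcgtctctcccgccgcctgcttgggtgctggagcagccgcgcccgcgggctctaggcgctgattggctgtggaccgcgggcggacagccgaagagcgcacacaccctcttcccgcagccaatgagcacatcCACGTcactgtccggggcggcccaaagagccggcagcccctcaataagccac
Pfkp: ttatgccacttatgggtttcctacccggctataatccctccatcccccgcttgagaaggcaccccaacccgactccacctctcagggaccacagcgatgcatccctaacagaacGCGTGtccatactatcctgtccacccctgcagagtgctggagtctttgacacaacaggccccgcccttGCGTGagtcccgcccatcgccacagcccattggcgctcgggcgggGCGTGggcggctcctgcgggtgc
Eno1: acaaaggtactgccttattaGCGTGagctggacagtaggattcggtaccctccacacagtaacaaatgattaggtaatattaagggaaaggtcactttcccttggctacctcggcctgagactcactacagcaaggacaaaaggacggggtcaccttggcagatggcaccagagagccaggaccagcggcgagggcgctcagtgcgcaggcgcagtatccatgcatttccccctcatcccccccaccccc
Ldha: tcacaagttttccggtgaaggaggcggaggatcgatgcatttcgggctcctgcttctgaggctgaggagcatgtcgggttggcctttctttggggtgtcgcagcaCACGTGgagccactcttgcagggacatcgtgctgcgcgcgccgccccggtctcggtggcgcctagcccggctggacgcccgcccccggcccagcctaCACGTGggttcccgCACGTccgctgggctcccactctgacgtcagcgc
ACGTG stood in the first window of 4 of the 10 members (Slc2a1, Hk2, Pgk1 and Ldha), beside 16.6% of all 32851 windows of this length in the table. GCGTG stood in that of 4 members (Slc2a1, Pfkp, Gapdh and Eno1), beside 28.2%, and CACGTG in that of 1 (Ldha), beside 6.02%. The shares of all windows take in those at later starts, and no share over first windows alone was computed. Some members have further windows at later starts. The 10 members had 16 windows and the 27025 gene symbols had 32851, so the members had more windows each. With every window counted, ACGTG stood in 6 members, Aldoa and Pkm being added, beside 18.5% of all gene symbols. GCGTG then stood in 5, Ldha being added, beside 30.9%. The later windows of Eno1, not printed, each held 2 matches to GCGTG. Of the 4 genes that fell past 1.5-fold at 6 h, the first windows of Slc2a1 and Hk2 held ACGTG, and so did those of Pgk1 and Ldha, which did not pass that limit. These are matches of letters, and no binding was measured.

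In the order control, 3 h, 6 h, which is kept throughout, the libraries held 127601369, 115188502 and 150987519 UMIs, of which 87.3%, 92.8% and 92.9% lay in the 2187, 1739 and 2554 cells used. The median cell had 43160, 51726 and 46200 UMIs. The mitochondrial share of a cell had a median of 4.58%, 3.52% and 2.89%, and the lower limit of 1% left out 62 control barcodes against 1 and 8 after cycloheximide. Of barcodes passing the rule, 3 were shared by the control and 3 h libraries, 3 by the control and 6 h libraries, and 1 by the 3 h and 6 h libraries. Random draws from all listed barcodes would give 0.56, 0.82 and 0.65. Each of the 10 stem cell markers passed 10 CPM, with summed levels of 7260, 8205 and 7318 CPM. Of these sums Dppa5a alone held 4771, 5327 and 5475 CPM. Fibroblast, primitive endoderm, trophoblast, mesoderm and neural markers summed to at most 21.5 CPM in any library, and Col3a1, Postn, Elf5 and Neurog1 were at 0 in the control.  A 3' UMI count is 1 tag per molecule, so CPM was compared between genes without division by length.

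Of the 10 genes, Slc2a1 and Hk2 were lowest relative to the control at 6 h. Slc2a1, on chromosome 4 (119108711 to 119137983, plus strand), encodes GLUT1, a glucose transporter of the plasma membrane. The control held 108 CPM (95% counting interval 106 to 110), the 3 h library 94.6 CPM (92.8 to 96.5) and the 6 h library 53.6 CPM (52.4 to 54.9). The 6 h level was thus the lowest of the 3, and the intervals did not overlap. On the log2 scale the gene differed from the control by -0.19 at 3 h and by -1.01 at 6 h (counting interval -1.05 to -0.97). At 3 h the direction for Slc2a1 depended on the scale, since UMIs per cell gave 0.08.

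Hk2, on chromosome 6 (82725025 to 82774454, minus strand), encodes hexokinase 2, an isoform that binds to mitochondria. The control and 3 h libraries held 132.7 CPM each, and the 6 h library held 63.9 CPM (62.6 to 65.2). Hk2 thus stood at the control level at 3 h, with a log2 ratio of 0.00 (-0.03 to 0.03), and all of its difference lay in the 6 h library, at -1.06 (-1.09 to -1.02). Under TMM scaling and under UMIs per cell its 3 h ratio was -0.17 and 0.27.

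Pfkp, on chromosome 13 (6579768 to 6648777, minus strand), encodes the platelet type of phosphofructokinase, the enzyme of the committed step. It was the least abundant of the 10 in every library, at 51.5 CPM, 40.0 CPM and 31.7 CPM. Its counting intervals did not overlap between any of the libraries, with a log2 ratio of -0.36 (-0.42 to -0.31) after 3 h that reached -0.70 (-0.76 to -0.64) after 6 h. Pfkp was lower at both times under CPM, TMM scaling and UMIs per cell.

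The enzymes that split the sugar differed less. Aldoa, on chromosome 7 (126795234 to 126800751, minus strand), encodes aldolase A and stood at 698, 624 and 634 CPM. Tpi1, on chromosome 6 (124810586 to 124814296, minus strand), encodes triosephosphate isomerase, which interconverts the products of that split, and stood at 132.3, 127.4 and 120.7 CPM. Both were lower than the control at each time by at most 0.16 on the log2 scale of CPM, and at 3 h UMIs per cell turned both directions, to 0.11 for Aldoa and 0.21 for Tpi1.

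Gapdh, on chromosome 6 (125161715 to 125166467, minus strand), encodes the dehydrogenase that oxidises glyceraldehyde 3-phosphate and is often used as a reference gene. It was the most abundant member in every library, at 3232, 3331 and 3303 CPM, with log2 ratios of 0.04 and 0.03. Gapdh was the 1 member above the control at both times on this scale, and TMM scaling turned that direction, to -0.13 and -0.26, as did leaving out the lower mitochondrial limit on barcodes, to -0.08 and -0.09. How reads shared with near-identical pseudogene copies were counted is not given in the sources used here.

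Pgk1, on chromosome X (106187100 to 106203699, plus strand), encodes phosphoglycerate kinase, which makes the first ATP of the pathway. It stood at 220.8, 207.6 and 204.0 CPM, a log2 difference of -0.09 and then -0.11, with 0.18 at 3 h under UMIs per cell. Pkm, on chromosome 9 (59656368 to 59679375, plus strand), encodes the muscle type of pyruvate kinase, which makes the last ATP, and stood at 784, 704 and 715 CPM. Its log2 ratios of -0.16 and -0.13 were close to those of Aldoa, and its 3 h ratio was 0.11 under UMIs per cell. Counts per gene do not separate the M1 and M2 splice forms of Pkm.

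Eno1, on chromosome 4 (150236721 to 150248879, plus strand), encodes enolase 1, which forms phosphoenolpyruvate. Among the members that act after phosphofructokinase it was the 1 gene to pass 1.5-fold in CPM. The control held 839 CPM (833 to 844), and the libraries of 3 h and 6 h held 687 CPM and 529 CPM. Each library was therefore lower than the one before it in the order of exposure, with log2 ratios of -0.29 and -0.67 (-0.68 to -0.65). Under UMIs per cell the 6 h ratio was -0.56, short of the 1.5-fold limit.

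Ldha, on chromosome 7 (46841475 to 46855627, plus strand), encodes lactate dehydrogenase A. It stood at 733, 661 and 594 CPM, with log2 ratios of -0.15 and -0.30. It did not pass 1.5-fold in CPM but did under TMM scaling at 6 h, at -0.59, and its 3 h ratio was 0.12 under UMIs per cell.

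**Figure D1:**
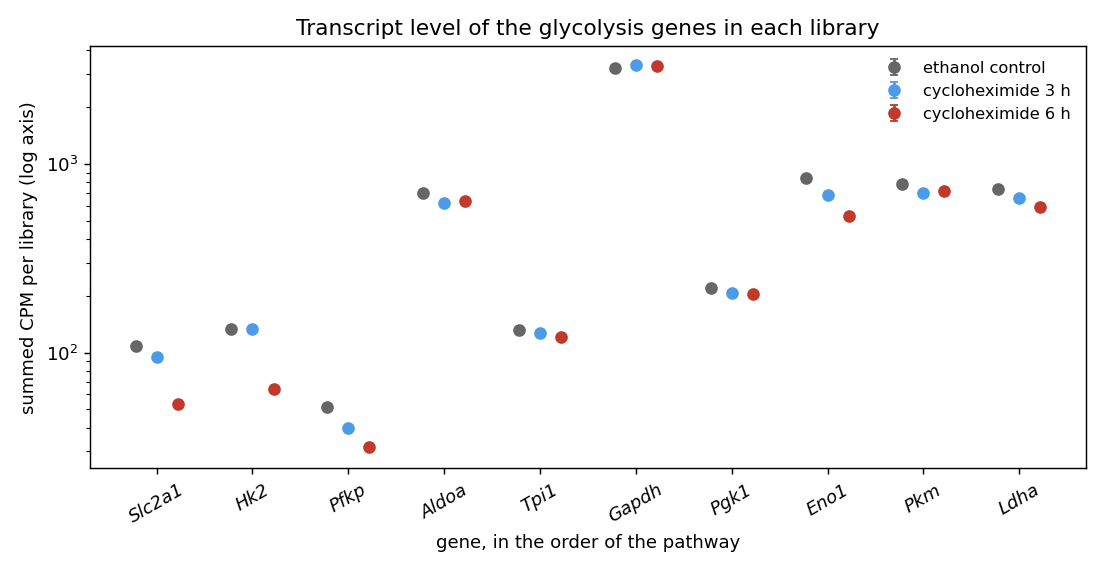
Level of each of the 10 genes in CPM, on a log axis, in the control, 3 h and 6 h libraries, with 95% counting intervals that are smaller than the points. Slc2a1 and Hk2 dropped between 3 h and 6 h, Eno1 was lower in each later library, and Gapdh stayed between 3232 and 3331 CPM.

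The order of the levels showed the same genes moving. In the control it ran Gapdh, Eno1, Pkm, Ldha, Aldoa, Pgk1, Hk2, Tpi1, Slc2a1 and Pfkp, and Hk2 and Tpi1 were the 1 pair of neighbours with overlapping counting intervals. At 6 h Eno1 stood after Gapdh, Pkm, Aldoa and Ldha, and Hk2 stood below Tpi1. Set against Gapdh in the same library, Slc2a1 had 33.4, 28.4 and 16.2 UMIs per 1000 Gapdh UMIs. Hk2 had 41.1, 39.8 and 19.3 UMIs, and Eno1 had 259, 206 and 160 UMIs per 1000 Gapdh UMIs. A ratio within a library is free of the scaling and shows only that these genes and Gapdh changed unequally.

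Counted over the list with a fixed limit of 1.5-fold in place of a test, 0 of 10 members were lower at 3 h, beside 2.13% of all genes, and 0 were higher, beside 13.9%. At 6 h 4 of 10 fell past it (Slc2a1, Hk2, Pfkp and Eno1), beside 7.79% of all genes, and 0 rose past it, beside 22.1%. Between 3 h and 6 h 2 of 10 fell (Slc2a1 and Hk2), beside 2.52%, and 0 rose, beside 1.74%. The 3 h and 6 h comparisons share the control library, so they are not independent. Of the 10 ratios, 8 lay below 0 at 3 h and 9 at 6 h, beside 35.9% of all genes at each time, and 8 lay below 0 between 3 h and 6 h, beside 42.3%. The median log2 ratio of the members was -0.15 and then -0.22, beside 0.11 and 0.17 over all genes. Among all genes Slc2a1 lay at percentile 2.34 at 6 h, Hk2 at percentile 2.10, Pfkp at 5.42 and Eno1 at 5.98, whereas Gapdh lay at 38.8.

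TMM scaling shifted every log2 ratio by -0.17 for 3 h and -0.29 for 6 h, and UMIs per cell shifted each by 0.27 and 0.11. Relative to all genes the members' place was the same under each. Their median at 3 h was -0.33 under TMM scaling and 0.12 under UMIs per cell, so its sign depended on the scale, whereas at 6 h it was -0.51 and -0.11.

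**Figure D2:**
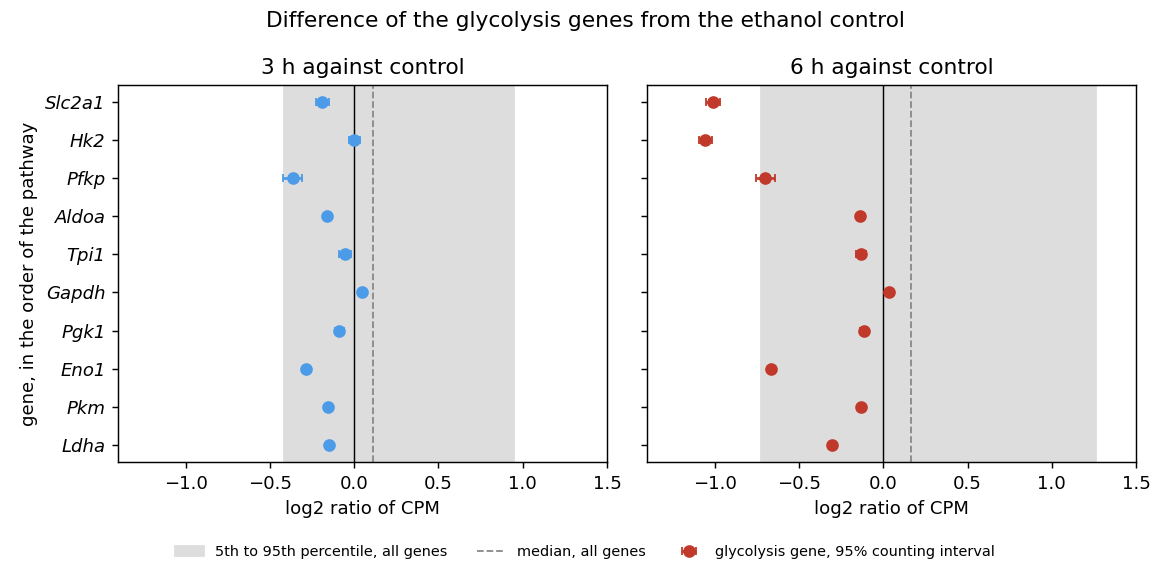
Log2 ratio of CPM to the control for each gene, at 3 h on the left and at 6 h on the right, with 95% counting intervals, the median of all 7608 genes (dashed) and their 5th to 95th percentile (grey). At 6 h Slc2a1 and Hk2 lay below the grey band, and Pfkp and Eno1 lay near its lower edge.

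Summed, the 10 genes took 6931, 6610 and 6248 CPM, or 0.693%, 0.661% and 0.625% of all UMIs, or -0.07 and -0.15 on the log2 scale against the control. Gapdh supplied 46.6%, 50.4% and 52.9% of that sum. Without it the other 9 summed to 3699, 3279 and 2945 CPM, with log2 ratios of -0.17 and -0.33. Per cell the 10 genes held 353, 406 and 343 UMIs, so the 3 h library was the highest per cell and the middle one in CPM.

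Other genes of glycolytic steps did not all move as the members did. They were isoforms of the members' steps and enzymes of steps that hold no member, such as Gpi1 and Pgam1. Adpgk, also listed, was not counted in the hexokinase total given below. Of the 23 listed, 9 passed 10 CPM. At 3 h 1 was higher past 1.5-fold (Adpgk, 23.3, 35.6 and 33.0 CPM), beside 13.9% of all genes, and 0 were lower, beside 2.13%. At 6 h 1 was higher (Ldhb), beside 22.1%, and 1 was lower (Pfkl), beside 7.79%. The median of their log2 ratios was 0.02, the value of Eno1b, and then -0.07, the value of Pgam1.

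Slc2a3 encodes GLUT3, a transporter of high glucose affinity, and it was the more abundant transporter in every library, at 177.1, 196.8 and 167.8 CPM. Its share among glucose transporter UMIs was 62.0% (exact Clopper-Pearson interval 61.5 to 62.5%), 67.1% (66.6 to 67.6%) and 74.9% (74.4 to 75.3%), with no overlap of the intervals. The transporter total was 286, 293 and 224 CPM. For hexokinase, Hk1 stood at 18.8, 14.5 and 14.2 CPM, and its share was 12.4%, 9.82% and 18.0%. Hk2 remained the main hexokinase transcript at 6 h, at 80.9%, of a total that was 152, 148 and 79.0 CPM.

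The phosphofructokinase total fell, with smaller shifts among its isoforms. Pfkl, the liver type, stood at 58.0, 46.1 and 36.7 CPM, with log2 ratios of -0.33 and -0.66, close to those of Pfkp. Pfkp made up 43.6%, 42.7% and 41.4% of the phosphofructokinase UMIs, whose total was 118, 93.6 and 76.6 CPM. The share of Pfkm, the muscle type, was 7.19%, 8.07% and 10.7%, and neither its control and 6 h intervals nor those of Pfkp overlapped.

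Lactate dehydrogenase showed the opposite, a level total with shifted shares. Ldhb encodes the subunit typical of heart, and it stood at 166.5, 224.8 and 328 CPM, which is 0.43 and 0.98 (0.95 to 1.00) on the log2 scale against the control. The Ldhb share of lactate dehydrogenase UMIs was 18.5% (18.3 to 18.8%), 25.4% (25.1 to 25.7%) and 35.6% (35.3 to 35.8%), with no overlap of the intervals. The total was 899, 886 and 922 CPM.

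For enolase, Eno1 held 94.1%, 92.3% and 89.4% of the UMIs. The share assigned to Eno1b, a near-identical copy of Eno1, was 2.50%, 3.03% and 4.15%, and reads of these 2 genes may not be separable. Aldoa held 99.6% of aldolase UMIs in each library. Gpi1, glucose 6-phosphate isomerase, stood at 162, 148 and 148 CPM, and Pgam1, phosphoglycerate mutase, at 748, 716 and 713 CPM. Neither passed 1.5-fold.

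**Figure D3:**
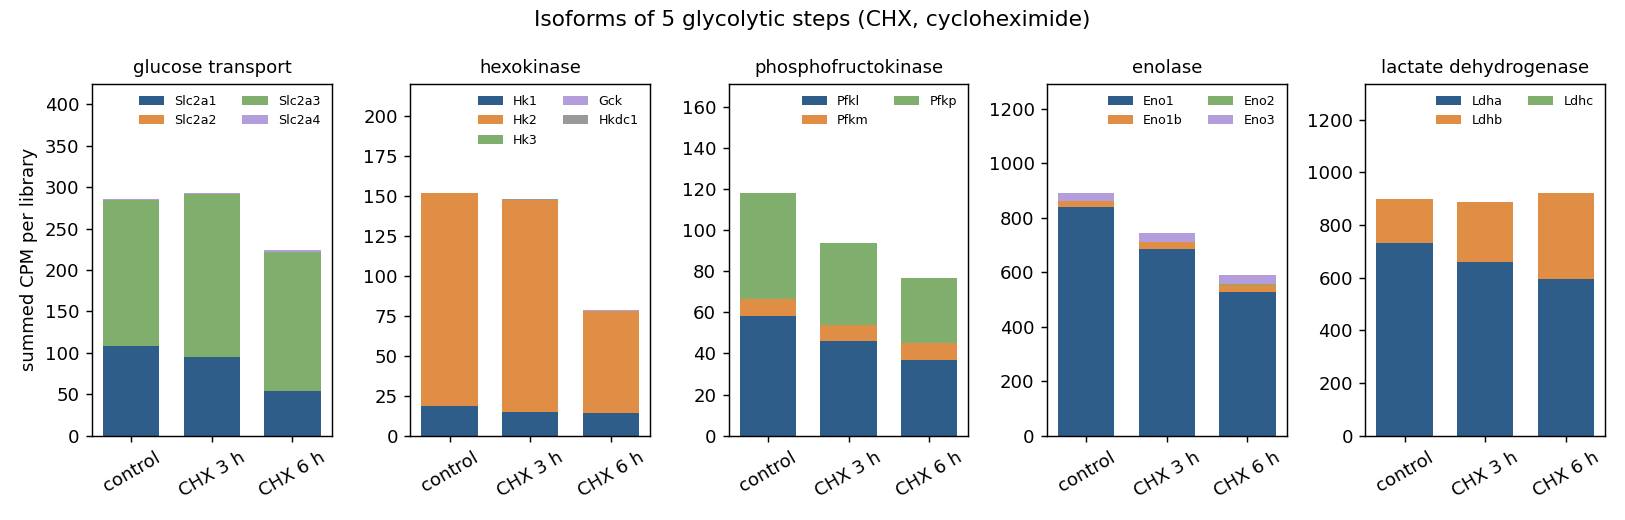
Stacked CPM of the isoforms of 5 glycolytic steps in the 3 libraries, with 1 bar per library and 1 colour per isoform. The hexokinase total went from 152 to 79.0 CPM, nearly all of it Hk2, whereas the lactate dehydrogenase total was 899 and 922 CPM with a larger Ldhb part at 6 h.

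Among 19 regulators of glycolysis, 10 passed 10 CPM. At 3 h 2 of the 10 rose past 1.5-fold (Txnip and Vhl), beside 13.9% of all genes, and 0 fell, beside 2.13%. At 6 h 3 rose (Txnip, Vhl and Bpgm), beside 22.1%, and 2 fell (Tigar and Hif1a), beside 7.79%. The floor also left out 2 regulators that were above 10 CPM in the control, named after their values were seen. Epas1, another HIF subunit, stood at 14.1, 8.28 and 5.77 CPM, and Egln1, a HIF prolyl hydroxylase, at 10.6, 6.64 and 7.09 CPM. Such a gene, with a mean below 10 CPM, must average lower after cycloheximide, so this choice fixed their direction. The floor left out regulators that rose as well, such as Pfkfb3 at 1.64, 4.03 and 6.48 CPM. Txnip, which promotes the removal of glucose transporters from the membrane, rose from 48.5 CPM to 438 and 445 CPM, log2 ratios of 3.17 and 3.20. Hif1a, the oxygen-regulated subunit of HIF1, stood at 76.2, 62.3 and 50.7 CPM, and its 6 h ratio of -0.59 lay at the limit. Tigar, a fructose bisphosphatase that opposes phosphofructokinase, fell to 27.4 CPM from 45.2 CPM. Vhl, which marks HIF subunits for degradation, stood at 7.68, 16.7 and 20.5 CPM, and Bpgm, bisphosphoglycerate mutase, at 15.0, 18.2 and 23.5 CPM. Vhl, below 10 CPM in the control, passed the floor on the mean only through the cycloheximide libraries. Such a gene must average higher after cycloheximide, so the floor fixed the direction of Vhl as well. Vhl and Bpgm lie under the level used to name genes and are given because the count is small. Arnt, the constant partner of Hif1a, stood at 19.3, 25.3 and 28.7 CPM.

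Of 16 known HIF targets outside glycolysis, 7 passed 10 CPM, and 0 of these 7 fell past 1.5-fold at either time, beside 2.13% and 7.79% of all genes. The floor on the mean bears on that 0, because 2 targets above 10 CPM in the control had means below it. Vegfa, a growth factor for blood vessels, stood at 16.1, 4.50 and 2.73 CPM, with log2 ratios of -1.83 and -2.55. Mxi1, an antagonist of Myc, stood at 12.8, 8.36 and 7.81 CPM, with ratios of -0.62 and -0.72. Both were named after their values were seen. A target above 10 CPM in the control with a mean below 10 CPM must average lower after cycloheximide. The direction of Vegfa and Mxi1 was therefore fixed by this choice. Targets below 10 CPM in every library went both ways, such as Adm at 0.0987, 0.281 and 0.962 CPM and Ankrd37 at 6.64, 4.31 and 3.34 CPM. Kdm3a, a histone demethylase, was the 1 of 7 that rose, at both times, beside 13.9% and 22.1% of all genes, and stood at 46.7, 71.8 and 77.5 CPM. The 7 had median log2 ratios of -0.04 and 0.04. Higd1a, a mitochondrial protein, stood at 215, 208 and 243 CPM.

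Genes of neighbouring pathways were counted at 6 h in the same way, beside 22.1% of all genes higher and 7.79% lower, and no difference between lists was tested. For the tricarboxylic acid cycle 16 of 16 genes passed 10 CPM, 1 rose (Sdhd, a succinate dehydrogenase subunit, at 98.4, 126 and 162 CPM) and 0 fell, with a median log2 ratio of 0.14. For the pentose phosphate pathway, which branches off after hexokinase, 6 of 7 passed 10 CPM, 1 rose (Rpe, ribulose phosphate epimerase, at 22.7, 33.0 and 37.2 CPM) and 0 fell, with a median of -0.02. For the exit of pyruvate and lactate 9 of 10 passed 10 CPM, 0 rose and 1 fell, with a median of -0.03. The gene that fell was Slc16a1, the lactate transporter MCT1, at 25.9, 20.2 and 16.4 CPM. Of 7 gluconeogenesis genes 1 passed 10 CPM, Pck2, mitochondrial phosphoenolpyruvate carboxykinase, at 43.7, 34.5 and 27.2 CPM, which is past the limit at 6 h.

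Other gene groups moved in the same libraries. Of 19 S phase genes at 10 CPM or more, 10 were higher past 1.5-fold at 6 h, beside 22.1% of all genes, and of 20 G2M genes 6 were lower, beside 7.79%. Of the 10 stem cell markers 3 were lower at 6 h, beside the same 7.79%. Among them were Zfp42 at 455, 592 and 240 CPM and Utf1 at 545, 501 and 329 CPM. In all, 8 of the 10 marker ratios lay below 0 at 6 h, beside 35.9% of all genes. The part of these groups in the glycolysis values was not tested. The profile of droplets holding only 10 to 100 UMIs, a measure of free RNA, had 87.8, 66.0 and 25.2 CPM of Slc2a1 and 114, 110 and 50.2 CPM of Hk2, so both were lowest at 6 h outside cells too. Subtracting 10% of that profile left the 4 genes lower past 1.5-fold at 6 h, beside 7.56% of all genes.

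Single cells were each thinned to 15000 UMIs, so that depth was equal and no cell was left out. These values come from the same UMIs as the sums and are not a second observation. Slc2a1, Hk2, Pfkp and Eno1 were again lower at 6 h, and so, by smaller proportions, were all other members but Gapdh. Slc2a1 averaged 1.67, 1.47 and 0.819 UMIs per cell, and the share of cells with at least 1 UMI was 77.6%, 73.3% and 53.2%. Unthinned, the shares for Slc2a1 were 97.1%, 96.8% and 87.2%. Hk2 averaged 1.96, 2.02 and 0.991 UMIs, with shares of 83.9%, 84.8% and 58.8% (unthinned 98.0%, 98.9% and 89.5%), and Pfkp averaged 0.776, 0.620 and 0.469 UMIs, with shares of 50.7%, 43.1% and 35.5% (unthinned 83.5%, 78.1% and 71.9%). Tpi1, whose control level was close to that of Hk2, had shares of 82.5%, 81.0% and 80.7%. Random (Poisson) counting at the same means would give shares of 81.1%, 77.0% and 55.9% for Slc2a1. For Hk2 it would give 85.9%, 86.7% and 62.9%, so for both genes the shares largely follow the mean. The libraries hold no cell type known to lack these genes, so the share that free RNA alone would give is not known.

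The lower Eno1 level was a shift of the whole distribution over cells. The median cell had 12, 10 and 8 Eno1 UMIs of 15000, with quartiles of 10 and 15 for control cells, 8 and 13 after 3 h, and 6 and 10 after 6 h. The upper quartile at 6 h therefore equalled the lower quartile of the control. Gapdh averaged 47.7, 48.8 and 48.4 UMIs per thinned cell, and 80% of control cells lay between 34 and 62 UMIs.

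**Figure D4:**
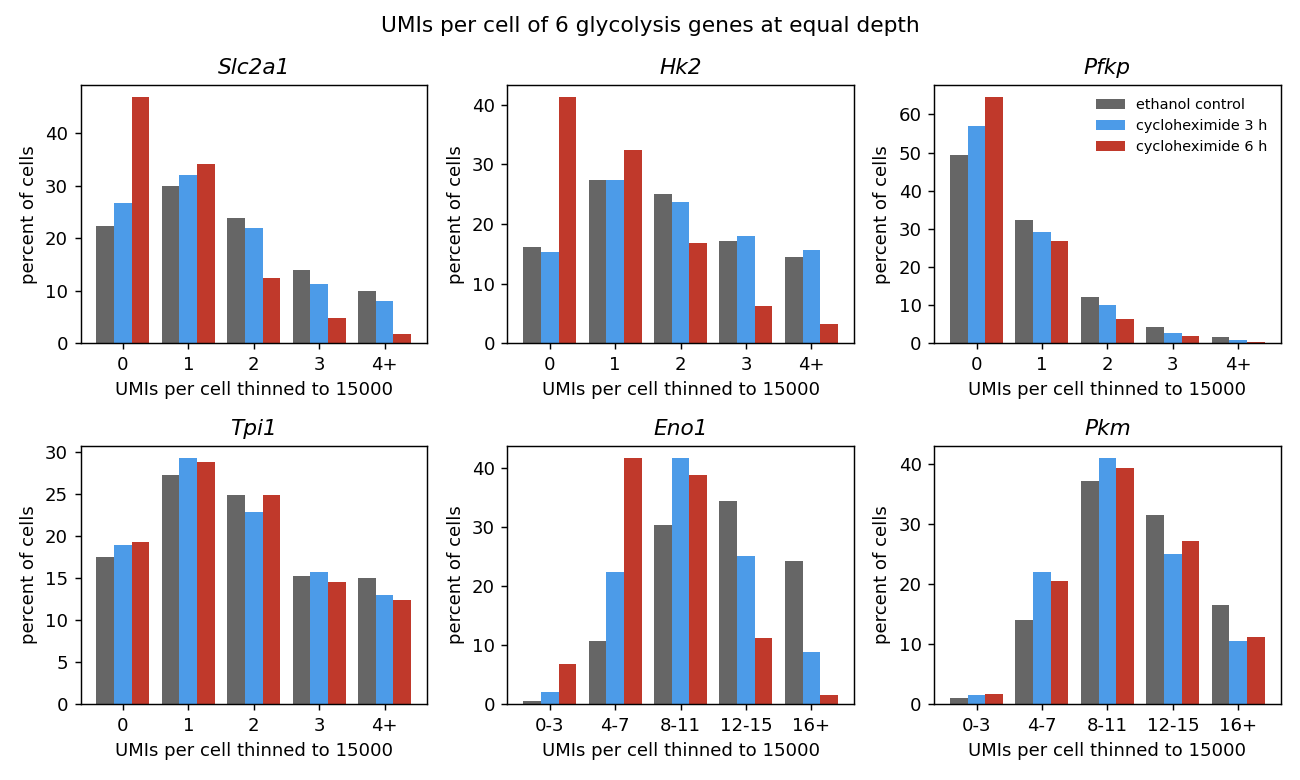
Percent of cells in each library (colours) by the number of UMIs of Slc2a1, Hk2, Pfkp, Tpi1, Eno1 and Pkm in cells thinned to 15000 UMIs. The Eno1 distribution lay lower at 6 h as a whole, and the share of cells with 0 UMIs at 6 h was 46.8% for Slc2a1 and 41.2% for Hk2, against 22.4% and 16.1% in the control.

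Variation between cells was measured as the excess squared coefficient of variation, which is the variance minus the mean, divided by the squared mean, so that counting noise is removed. For the sum of the 10 genes it was 0.0267, 0.0241 and 0.0244, and the median cell held 101, 97 and 92 of 15000 UMIs from these genes. For Hk2 it was 0.0853, 0.0768 and 0.235. Over 5 thinnings of the same cells the Hk2 value ranged from 0.0853 to 0.109, from 0.0768 to 0.156 and from 0.173 to 0.240. The 6 h range thus lay above the others, but such ranges cover the thinning only, not the sampling of cells or libraries. Slc2a1 ranged from 0.140 to 0.177 in the control and from 0.234 to 0.302 at 6 h. The ranges of Pfkp overlapped, at 0.233 to 0.327, 0.254 to 0.536 and 0.286 to 0.435. The values for Gapdh lay between 0.0299 and 0.0444 in all 3 libraries.

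Across cells some of the 10 genes varied weakly together and others did not, and pairs of other genes were not measured for comparison. Over all 45 pairs the median Spearman correlation in thinned cells was 0.0577, 0.0511 and 0.0626. Cells of 1 library share that library and its base composition, and the correlations are descriptions. The 21 pairs among Aldoa, Tpi1, Gapdh, Pgk1, Eno1, Pkm and Ldha, a division made after the values were seen, were all above 0, with medians of 0.137, 0.138 and 0.111. The 24 pairs with Slc2a1, Hk2 or Pfkp had medians of 0.0160, 0.0070 and 0.012. Tpi1 and Hk2 had nearly equal counts in the control, and their medians with the other 6 of those genes were 0.129 and 0.00620. The highest pair was Aldoa with Gapdh in all 3 libraries, at 0.253, 0.256 and 0.240.

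**Figure D5:**
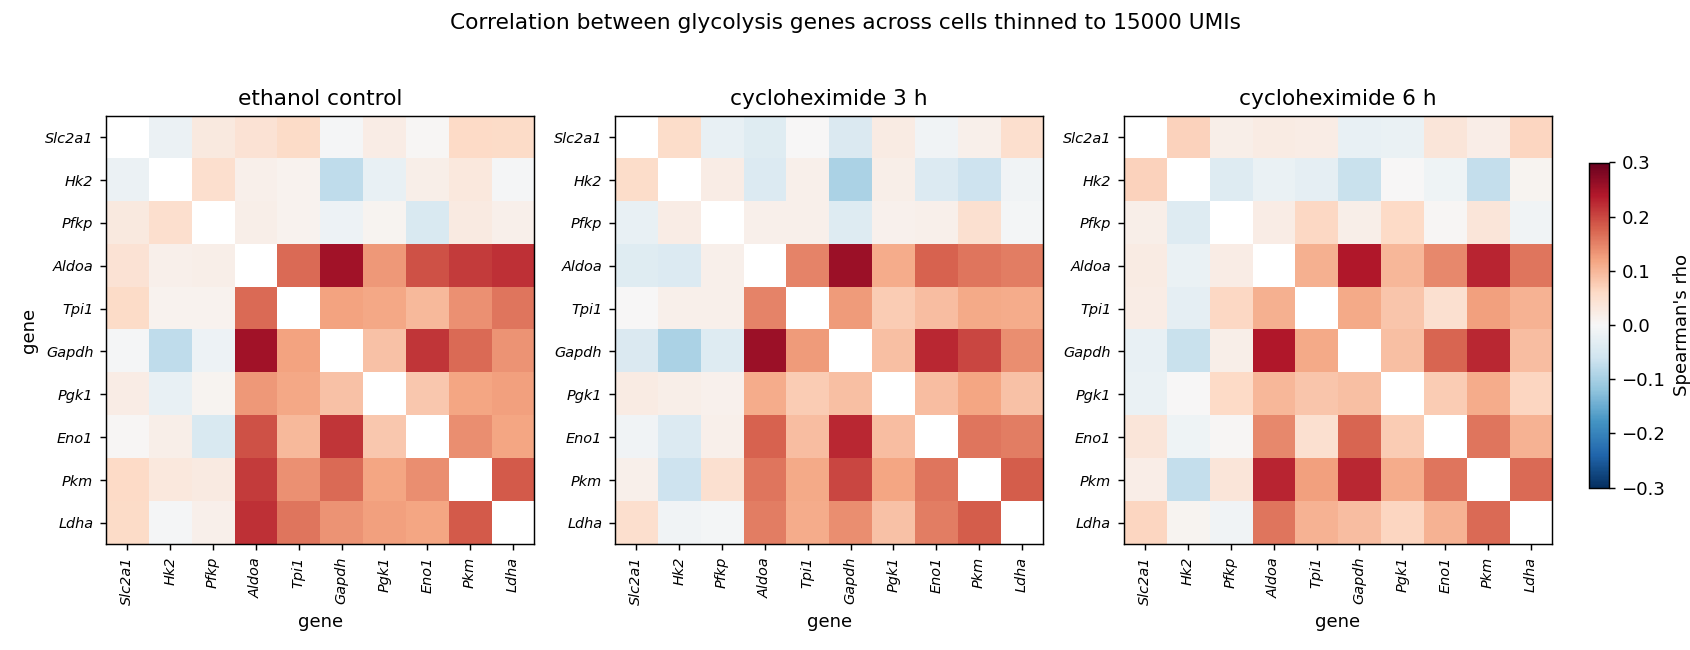
Spearman correlation between each pair of the 10 genes across cells thinned to 15000 UMIs, in the 3 libraries, in the order of the pathway. The block from Aldoa to Ldha was above 0 throughout, and rows of Slc2a1, Hk2 and Pfkp were near 0.

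The summed members were also compared with other summed lists across cells. Gapdh averaged 47.7, 48.8 and 48.4 of the 102.9, 97.6 and 92.2 summed UMIs per thinned cell, and no sum without it was compared. The correlation of the summed members with mitochondrially encoded UMIs was -0.338, -0.327 and -0.236, and with ribosomal protein genes 0.130, 0.334 and 0.308. With stem cell markers, a sum made up mostly of Dppa5a, it was 0.237, 0.122 and 0.139. With the other genes of glycolytic steps it was 0.215, 0.153 and 0.175, and with pentose phosphate genes 0.193, 0.189 and 0.173. Genes of the tricarboxylic acid cycle gave 0.176, 0.165 and 0.175. Those of the exit of pyruvate and lactate gave 0.071, 0.021 and 0.021. Correlations with S phase genes lay between 0.015 and 0.047 and with G2M genes between -0.054 and -0.036. Slc2a3 went slightly against the sum in every library, at -0.090, -0.097 and -0.102. Shares of a fixed total are not independent of each other, which bears on all of these values.

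Of 1969 other genes with at least 1 UMI per thinned cell in each library, Ppia, which encodes cyclophilin A, was the most like the summed members, with 0.338, 0.350 and 0.330. Next were Prdx1, a peroxiredoxin, with 0.291, 0.285 and 0.255, Rpl10a, a ribosomal protein, with 0.240, 0.344 and 0.284, Eif5a, a translation factor, with 0.230, 0.274 and 0.243, and Gsta4, a glutathione transferase, with 0.266, 0.252 and 0.226. All 5 are ranked by the lowest of their 3 values, whose median over the 1969 genes was -0.01. The weight of Gapdh in the sum bears on this ranking too.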

How the data were processed

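Raw UMI counts per gene and barcode were deposited by the authors, 1 table of 32285 genes and 6794880 barcodes per library, with no cells called. The submitters' processing notes name Cell Ranger 4.0.0 and the build mm10, and the annotation is not given in the sources used here. Positions are those of GENCODE M21 (GRCm38), in which 32158 identifiers and all 10 members were found, and promoters are from RefSeq.

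Barcodes with at least 15000 UMIs and 1 to 20% mitochondrial UMIs were kept and their counts summed to CPM. Doublets were not removed. Log2 ratios used a prior of 0.5 counts. With 1 library per group no test was made, and genes past 1.5-fold were counted over genes that averaged 10 CPM or more. Intervals are at 95%: exact Poisson for CPM, exact conditional binomial for ratios and Clopper-Pearson for shares. They cover counting error only, so deeper genes such as Gapdh have the narrowest. Cells were thinned without replacement to 15000 UMIs. The summing and ratio steps were tested on simulated data.

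All 10 members are named. Of every other list the 2 highest and 2 lowest 6 h ratios among genes averaging 20 CPM or more, and the most abundant isoform of each step, could be named, and 5 genes by likeness across cells. The members and lists were chosen with earlier results of these data known. Alternatives covered scaling (TMM of edgeR), prior, floor, barcode limits, free RNA, thinning and possible doublets. Python 3.11.15, numpy 2.4.6, scipy 1.17.1, pandas 2.3.3, matplotlib 3.10.9, R 4.3.3 and edgeR 4.0.16 were used. No protein sequences were used here.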

Additional observations from a re-analysis of the deposited data

Results flagged for a closer look

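Slc2a3, Higd1a and Zfp42 had log2 ratios of CPM of opposite sign at 3 h and 6 h, with counting intervals that left out 0 at both times. The change between 3 h and 6 h was not tested, there being 1 library per group. Slc2a3, the GLUT3 transporter, was at 0.15 and then -0.08. TMM scaling gave -0.02 and -0.36, and UMIs per cell gave 0.42 and 0.03, so the sign of Slc2a3 rests on the scale. Higd1a, a mitochondrial protein, was at -0.05 and then 0.18, with -0.22 and -0.11 under TMM scaling and 0.22 and 0.29 under UMIs per cell. Zfp42, a marker of naive stem cells, was at 0.38 and then -0.93, and Zfp42 kept these signs under TMM scaling (0.21 and -1.21) and under UMIs per cell (0.65 and -0.82).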

How the results depend on the processing

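No paired analysis was possible because each group had 1 library. For the same reason no replicate could be left out. Scaling by TMM moved the median log2 ratio of the 10 genes from -0.15 to -0.33 at 3 h, from -0.22 to -0.51 at 6 h and from -0.12 to -0.23 between 3 h and 6 h, and the ratio of their sum from -0.07 to -0.24, from -0.15 to -0.44 and from -0.08 to -0.19. UMIs per cell moved the medians to 0.12, -0.11 and -0.28 and the sums to 0.2, -0.04 and -0.24. With no lower mitochondrial limit the 3 h and 6 h medians were -0.18 and -0.28 and the sums -0.15 and -0.23. Subtraction of 10% free RNA gave medians of -0.13, -0.19 and -0.09 and sums of -0.05, -0.13 and -0.07. Leaving out barcodes above 2 times the median UMIs gave sums of -0.08 and -0.16 at 3 h and 6 h. Barcodes of 30000 to 60000 UMIs, an alternative chosen after seeing the data, gave sums of -0.09, -0.16 and -0.07 and a median of -0.09 between 3 h and 6 h. Apart from the scaling, the cause of these shifts was not tested. At 6 h the number of members lower past 1.5-fold was 4, beside 7.79% of all genes. It was 5 under TMM scaling, beside 17%, and 3 under UMIs per cell, beside 5.58%. With a floor of 50 CPM it was 3, beside 6.54%, because Pfkp, with a mean of 41.1 CPM, lay under that floor. The median correlation of pairs was 0.04 in the control and 0.0302 at 6 h when thinned to 10000 UMIs, and unthinned it was 0.109, 0.0908 and 0.0936. The excess squared coefficient of variation of the sum lay between 0.0229 and 0.0279 in all libraries under each alternative run. Depth limits Pfkp, Slc2a1, Hk2 and Tpi1 most, at 2.02 UMIs or fewer per thinned cell in every library.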
